A study of Mus musculus with 9 samples.

Results

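The proteasome genes were the 48 genes, of 55704 in the deposited table, whose mouse symbol is Psma, Psmb, Psmc, Psmd, Psme, Psmf or Psmg followed by a number. Ensembl identifiers were paired with symbols through GENCODE vM39. Of the 48, 47 were above 0 in at least 1 library, and 46 had a mean of at least 0.1 FPKM (fragments per kilobase of gene, scaled to library depth) and entered the test with 20207 genes in all. The other 2 were Psma8 and Psmb11, core subunits known from the testis and the thymus. Psma8 was at 0 in all 9 libraries, and Psmb11 had 0 to 8 fragments per library.

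RNA-seq was performed on NSCs from the subventricular zone (SVZ) of adult C57BL/6 mice aged 8 to 9 weeks, with 2 female and 2 male mice pooled for an isolation and at least 3 passages before the cells were plated as an adherent layer. The bFGF/EGF-treated NSCs were collected at day 0. The bFGF/BMP4-treated NSCs (BMP4 in place of EGF) and the BMP4-treated NSCs (BMP4 in place of both factors) were collected at day 6, and each factor was used at 20 ng/mL. Each group had 3 libraries, described as biological replicates without saying whether they came from separate isolations, so p-values measure the spread between these samples. Both day 6 groups share the bFGF/EGF libraries as their control, and the treatment and the time in culture cannot be told apart. In bulk RNA, fewer cells of a type and less RNA per cell cannot be told apart either.

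The libraries held 15892854 to 17419822 fragments on genes, as rebuilt from the FPKM values. All 8 NSC markers (Sox2, Nes, Slc1a3, Vim, Pax6, Fabp7, Prom1 and Sox9) were expressed, with a summed level of 1707 to 1814 FPKM in bFGF/EGF-, 682 to 783 FPKM in bFGF/BMP4- and 1499 to 1942 FPKM in BMP4-treated NSCs. Most of that sum is Vim and Fabp7, and single markers differed: Nes was at 145 to 157 FPKM in bFGF/EGF-, 2.96 to 3.94 FPKM in bFGF/BMP4- and 10.7 to 20.7 FPKM in BMP4-treated NSCs, and Prom1 was at 0.121 to 0.191 FPKM in bFGF/BMP4-treated NSCs. Of 9 microglial markers, 6 were under 0.1 FPKM in every library, among them C1qa, C1qb and Itgam at 0. The sum of the 9 was 1.49 to 1.75 FPKM in BMP4-treated NSCs against 0.411 to 0.876 FPKM in the other libraries. The 2 microglial markers tested changed in opposite directions. Tmem119 was at 0 in every control library, and it reached 0.108 to 0.352 FPKM with bFGF/BMP4 and 1.20 to 1.46 FPKM with BMP4 alone. P2ry12 fell by 1.37 on the log2 scale with bFGF/BMP4 (limma, adjusted p = 0.0073) and by 1.01 with BMP4 alone (adjusted p = 0.029). Summed markers of neurons (105 to 185 FPKM in BMP4-treated NSCs against 16.6 to 32.1 in the other libraries), ependymal cells (57.8 to 69.9 against 8.23 to 12.6 FPKM) and oligodendrocytes (20.9 to 26.4 against 0.544 to 6.71 FPKM) were highest in BMP4-treated NSCs. Those of endothelial and mural cells were at 0.15 to 0.276 FPKM in bFGF/EGF-, 1.68 to 2.53 FPKM in bFGF/BMP4- and 3.75 to 5.41 FPKM in BMP4-treated NSCs, with Cldn5 at 0. The part of these markers in the results was not tested.

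The proteasome degrades proteins that carry chains of ubiquitin. Its core particle is a barrel of α and β rings with the catalytic sites inside, and its regulatory particle, made of a base with ATPases and a lid, binds ubiquitin chains, removes them, unfolds the substrate and opens the barrel. Other caps (the activators Psme1 to Psme4) can take the place of the regulatory particle, dedicated chaperones assemble the parts, and interferon-γ exchanges the catalytic subunits for those of the immunoproteasome. The transcription factor Nfe2l1 (Nrf1) raises the proteasome genes together when proteasome activity is low, and proteasome activity has been described to differ between quiescent and activated NSCs.

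Proteasome genes were lower in both day 6 groups than in bFGF/EGF-treated NSCs. They took 0.624% ± 0.039 of the fragments on genes in bFGF/EGF- (SD, n = 3), 0.358% ± 0.0095 in bFGF/BMP4- and 0.394% ± 0.064 in BMP4-treated NSCs. Their summed level was 2355 ± 253, 1451 ± 66.5 and 1578 ± 341 FPKM in the same order. In bFGF/BMP4-treated NSCs, 38 of the 46 genes tested fell and 0 rose (limma, adjusted p of at most 0.05), where 23.6% of all genes fell and 25% rose (48.6% in either direction). At an unadjusted p under 0.05, 0 rose and 38 fell, and limma-voom on the fragment numbers gave the same 2 counts. In BMP4-treated NSCs, 31 fell and 2 rose, where 25.3% of all genes fell and 29.6% rose (54.9% in either direction).

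Most proteasome genes fell by less than 2-fold. The median log2 fold change of the 46 genes was -0.72 in bFGF/BMP4-treated NSCs, a level 39.2% lower, and -0.64 in BMP4-treated NSCs, a level 36.0% lower, beside medians of 0.06 and 0.10 over all genes tested. With a fold change of at least 2 as a further condition, 2 genes (Psma7 and Psmg4) fell in bFGF/BMP4-treated NSCs, where 14.1% of all genes did, and 3 (Psma7, Psmd3 and Psmg1) in BMP4-treated NSCs, where 15.4% did. In 40 of the 46 genes all 3 bFGF/BMP4 libraries lay below all 3 bFGF/EGF libraries (27.5% of all genes), and in 27 the BMP4 libraries did (27.8% of all genes). In the opposite direction, 1 gene did not overlap in bFGF/BMP4-treated NSCs (30.2% of all genes) and 3 in BMP4-treated NSCs (32.6%). All fold changes are on the log2(FPKM + 0.1) scale, which understates the change of low genes.

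**Figure D1:**
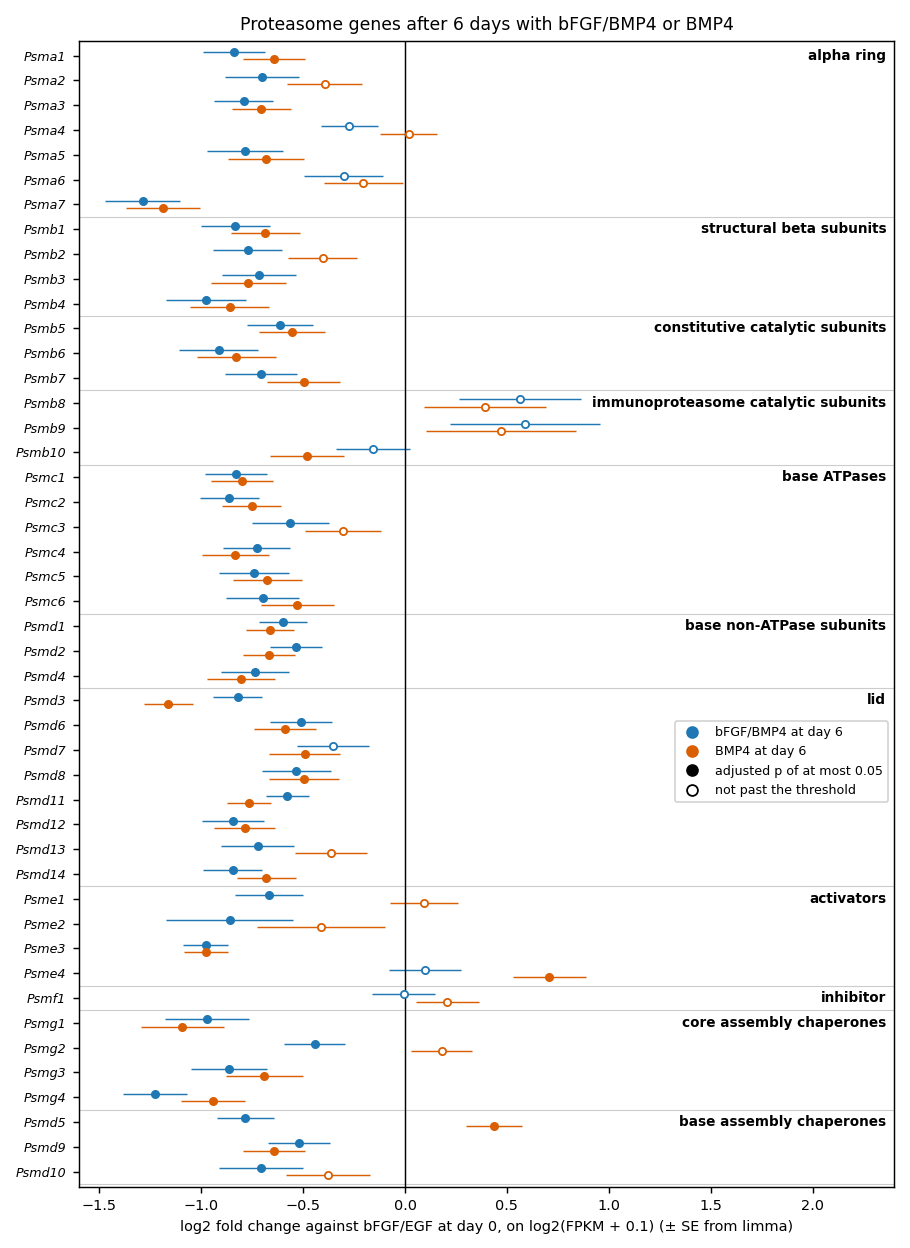
Log2 fold change (± SE, limma) of each of the 46 proteasome genes tested in bFGF/BMP4- (blue) and BMP4-treated NSCs (orange) against bFGF/EGF-treated NSCs, by role; filled points passed an adjusted p of 0.05. Most points lie left of 0 in both groups, and Psmd5 and Psme4 are the filled points to its right, both in BMP4-treated NSCs.

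1 BMP4 library differed from the others of its group. In replicate 2 of the BMP4-treated NSCs, 43 of the 46 proteasome genes were at their highest within the group, where 40.1% of all genes were, and their median was 0.50 higher on the log2 scale than the mean of replicates 1 and 3. All 31 constitutive subunits of the core and regulatory particle were highest in it. The sum of FPKM over all genes was 326302 in this library and 278175 and 278433 in the other BMP4 libraries. Without it, 38 proteasome genes fell and 1 rose in BMP4-treated NSCs, and the median was -0.76. The shares of all genes called in that fit are not given here, so these counts have no background beside them.

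**Figure D2:**
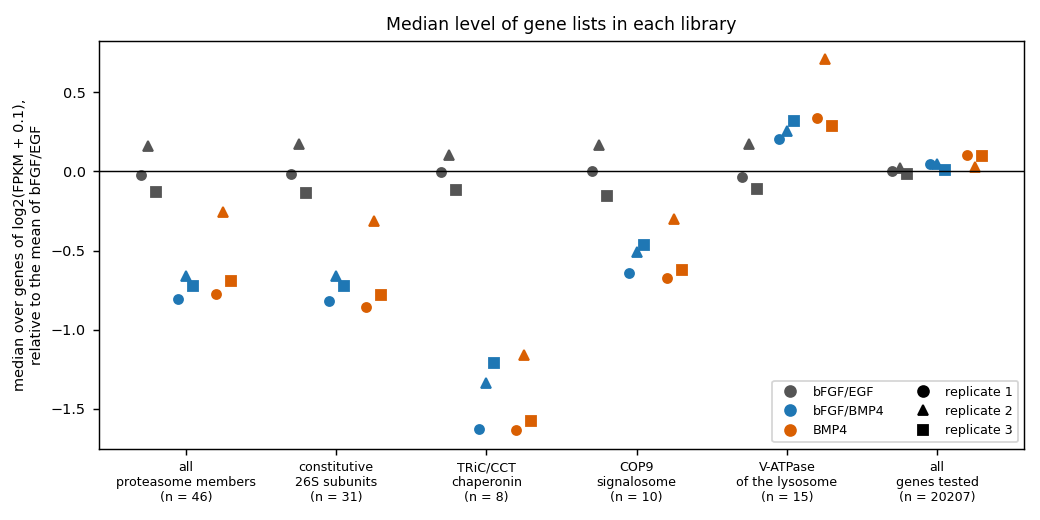
Median log2(FPKM + 0.1) of gene lists in each of the 9 libraries, relative to the mean of the bFGF/EGF libraries. The 46 proteasome genes lie between -0.81 and -0.25 in the 6 day 6 libraries, with BMP4 replicate 2 (orange triangle) nearest to the control, while the median of all 20207 genes lies between -0.02 and 0.10.

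Sequences before the RefSeq start of 4 proteasome genes are shown because 2 of them (the catalytic Psmb5 and Psmb6) fell in both day 6 groups and the other 2 (Psmd5 and Psme4) rose in BMP4-treated NSCs. They are the 250 bases upstream of the RefSeq start (table on GRCm38.p6), found again in GRCm39 at chr14:54855453-54855702 (minus strand), chr11:70415933-70416182 (plus), chr2:34760975-34761224 (minus) and chr11:30721525-30721774 (plus), in the order below. The RefSeq starts of Psmb5, Psmd5 and Psme4 differ from the gene bounds of GENCODE. The Psmd5 window lies inside the Psmd5 gene. The ends of the Psmb5 and Psme4 windows next to the start lie inside their genes (Psmb5 at chr14:54850776-54855481). Capitals mark a match to TGACNNNGC, the core of the antioxidant response element to which Nfe2l1 and Nfe2l2 bind.
Psmb5: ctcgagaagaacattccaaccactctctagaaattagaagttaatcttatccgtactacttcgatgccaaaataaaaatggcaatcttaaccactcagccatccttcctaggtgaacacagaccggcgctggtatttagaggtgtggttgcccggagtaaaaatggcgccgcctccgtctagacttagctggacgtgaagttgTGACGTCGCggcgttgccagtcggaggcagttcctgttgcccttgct
Psmb6: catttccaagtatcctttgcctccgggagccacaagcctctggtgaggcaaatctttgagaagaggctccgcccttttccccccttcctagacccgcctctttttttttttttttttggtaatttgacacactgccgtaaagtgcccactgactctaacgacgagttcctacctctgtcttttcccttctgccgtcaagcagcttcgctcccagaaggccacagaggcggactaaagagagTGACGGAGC
Psmd5: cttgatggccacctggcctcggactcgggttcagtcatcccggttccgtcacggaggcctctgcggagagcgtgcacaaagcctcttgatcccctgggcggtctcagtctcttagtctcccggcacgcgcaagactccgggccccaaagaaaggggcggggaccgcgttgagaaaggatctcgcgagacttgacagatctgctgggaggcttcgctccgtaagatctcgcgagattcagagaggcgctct
Psme4: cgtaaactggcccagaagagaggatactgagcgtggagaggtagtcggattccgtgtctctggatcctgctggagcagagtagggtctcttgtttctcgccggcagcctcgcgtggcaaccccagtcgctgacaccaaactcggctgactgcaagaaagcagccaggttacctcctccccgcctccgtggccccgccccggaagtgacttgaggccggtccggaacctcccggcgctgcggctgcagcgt
Windows were found for 40 of the 48 genes, and TGACNNNGC was searched on both strands. It was present in 5 of the 40 (12.5%: Psmb5, Psmb6, Psmc6, Psmd9 and Psmd12), beside 11.5% of 27025 genes with a window of the same length. In Psmb5 the match lies at bases -47 to -39 from the start and in Psmb6 at -9 to -1. The core of the interferon-stimulated response element (GAAA, any 2 bases and GAAA again, both strands) was present in 3 of the 40 (7.5%: Psmb3, Psmd4 and Psmd9) and in 3.46% of all genes, and these matches do not overlap the others. A match describes the letters only.

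Among the 31 constitutive subunits, 28 fell in bFGF/BMP4- and 25 in BMP4-treated NSCs, and 0 rose (0 also at an unadjusted p under 0.05 and with limma-voom). Of all genes, 23.6% fell and 25% rose in bFGF/BMP4-, and 25.3% fell and 29.6% rose in BMP4-treated NSCs. The α ring, which gates the barrel, had 5 of 7 genes lower in bFGF/BMP4- and 4 of 7 in BMP4-treated NSCs. Psma7 (chr2:179678155-179684421, GRCm39) had the largest fall of all proteasome genes in both groups. It was at 60.4, 79.4 and 56.2 FPKM in bFGF/EGF-, 26.8, 25.8 and 26.7 FPKM in bFGF/BMP4- and 24.7, 37.4 and 24.5 FPKM in BMP4-treated NSCs. No day 6 library reached the lowest control library, and Psma7 fell by 1.29 ± 0.18 (SE; limma, adjusted p = 0.00026) and by 1.19 ± 0.18 (adjusted p = 0.00034) on the log2 scale. Psma4 and Psma6 passed the test in neither comparison, with log2 fold changes of -0.27 and 0.02 for Psma4 and of -0.30 and -0.20 for Psma6. Without BMP4 replicate 2, Psma4 was called lower in bFGF/BMP4-treated NSCs (-0.27, adjusted p = 0.030), as it was on the TPM scale and with only these 2 groups fitted, and Psma6 in BMP4-treated NSCs (-0.42, adjusted p = 0.036). Psma2, not called in BMP4-treated NSCs (-0.39, adjusted p = 0.095), was called there without this library (-0.62, adjusted p = 0.0032) and on the TPM scale.

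Of the 4 structural β subunits, which carry no active site, all 4 fell in bFGF/BMP4-treated NSCs and 3 in BMP4-treated NSCs (23.6% and 25.3% of all genes fell). The exception, Psmb2 (-0.40, limma adjusted p = 0.068), was called lower there without BMP4 replicate 2 (-0.57, adjusted p = 0.0096). It was also called on the TPM scale, with median-ratio scaling, quantile normalization, limma-voom and the replicate block. Psmb4 was at 126, 148 and 110 FPKM in bFGF/EGF-, 61.4, 61.9 and 70.7 FPKM in bFGF/BMP4- and 58.4, 95.8 and 61.2 FPKM in BMP4-treated NSCs. It was thus below the control in every day 6 library, by 49.2% in bFGF/BMP4-treated NSCs (limma, adjusted p = 0.0022) and by 44.9% in BMP4-treated NSCs (adjusted p = 0.0039).

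The 6 base ATPases (Psmc1 to Psmc6), the ring that unfolds substrates, all fell in bFGF/BMP4-treated NSCs, with log2 fold changes of -0.86 to -0.56. Of all genes, 23.6% fell in bFGF/BMP4- and 25.3% in BMP4-treated NSCs. In BMP4-treated NSCs 5 of the 6 base ATPases fell, the exception being Psmc3 (log2 fold change -0.30, limma adjusted p = 0.20), which was called without BMP4 replicate 2 (-0.52, adjusted p = 0.016) and on the TPM scale. Of the calls, that of Psmc3 in bFGF/BMP4-treated NSCs was lost in 5 of the 9 fits without 1 library and without a filter on low values, and that of Psmc6 in BMP4-treated NSCs in 4, with quantile normalization and with only the 2 groups fitted. The 3 non-ATPase subunits of the base (Psmd1, Psmd2 and the ubiquitin receptor Psmd4) fell in both groups, by 0.53 to 0.74 in bFGF/BMP4- and 0.66 to 0.81 in BMP4-treated NSCs on the log2 scale. Of the 8 lid subunits, 7 fell in each comparison, among them Psmd14, the enzyme that removes ubiquitin chains from the substrate. In fits without 1 library the lid calls of Psmd8 (5 of 9) and Psmd6 (3 of 9) were lost in bFGF/BMP4-treated NSCs and those of Psmd7 (6 of 9) and Psmd8 (5 of 9) in BMP4-treated NSCs. Psmd7 and Psmd8 were also lost there without a filter and with only the 2 groups fitted, and Psmd13, not called there, was called without BMP4 replicate 2 (-0.57, adjusted p = 0.0076) and on the TPM scale. Psmd14 was at 49.2, 48.9 and 49.2 FPKM in bFGF/EGF-, 23.9, 29.0 and 29.3 FPKM in bFGF/BMP4- and 26.4, 37.8 and 28.6 FPKM in BMP4-treated NSCs.

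Psmd3, a structural lid subunit, was the member with the second largest fall in BMP4-treated NSCs. It was at 57.5, 70.5 and 53.2 FPKM in bFGF/EGF-, 35.6, 33.8 and 32.5 FPKM in bFGF/BMP4- and 26.8, 27.9 and 25.5 FPKM in BMP4-treated NSCs, so that the 3 groups did not overlap. Psmd3 fell by 1.16 ± 0.12 on the log2 scale in BMP4-treated NSCs (limma, adjusted p = 2.4e-05) and by 0.82 ± 0.12 in bFGF/BMP4-treated NSCs (adjusted p = 0.00033). Between BMP4- and bFGF/BMP4-treated NSCs the log2 difference was -0.34 ± 0.12 (adjusted p = 0.075), and it passed the test on the TPM scale, after quantile normalization, in a fit of these 2 groups alone and without bFGF/EGF replicate 2.

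The order of levels at the ends of the constitutive complex was the same in every library. Psmd11, a lid subunit, was the lowest of the 31 genes and Psma6 the highest in all 9 libraries. Psma6 was 6.11 to 12.9 times Psmd11, and the 31 genes made up 87.9% to 90.2% of the summed FPKM of the proteasome genes. The SD of log2 levels across the 31 genes was 0.688 ± 0.050 with bFGF/EGF, 0.722 ± 0.011 with bFGF/BMP4 and 0.738 ± 0.042 with BMP4 alone.

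The constitutive catalytic subunits fell in both groups. Psmb5, which cuts after hydrophobic residues, was at 120, 140 and 107 FPKM in bFGF/EGF-, 81.1, 76.6 and 80.0 FPKM in bFGF/BMP4- and 71.3, 105 and 75.5 FPKM in BMP4-treated NSCs. Psmb6, which cuts after acidic residues, was at 94.1, 109 and 78.3 FPKM, at 50.3, 47.9 and 49.6 FPKM and at 43.0, 72.0 and 46.4 FPKM in the same order. Psmb7, which cuts after basic residues, was at 43.1, 49.7 and 39.9 FPKM, at 24.9, 27.8 and 28.3 FPKM and at 25.5, 41.9 and 28.3 FPKM. All bFGF/BMP4 libraries lay below the controls for the 3 genes, and BMP4 replicate 2 overlapped them for Psmb7. In bFGF/BMP4-treated NSCs the log2 fold changes were -0.61 (Psmb5), -0.91 (Psmb6) and -0.71 (Psmb7), with limma adjusted p of 0.010, 0.0032 and 0.0080. In BMP4-treated NSCs they were -0.55, -0.83 and -0.50, with adjusted p of 0.015, 0.0048 and 0.037, and -0.72, -1.06 and -0.71 without BMP4 replicate 2. In BMP4-treated NSCs the fall of Psmb5 was no longer called in 3 and that of Psmb7 in 7 of the 9 fits without 1 library, and neither was called with only these 2 groups fitted.

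The immunoproteasome subunits did not fall in bFGF/BMP4-treated NSCs. Psmb8, which replaces Psmb5, was near the limit of detection, with 8 to 17 fragments per library. It was at 0.191, 0.150 and 0.151 FPKM in bFGF/EGF-, 0.276, 0.270 and 0.322 FPKM in bFGF/BMP4- and 0.219, 0.310 and 0.215 FPKM in BMP4-treated NSCs. Both day 6 groups lay above the control without passing the test (limma, adjusted p = 0.15 and 0.29). Psmb9, which replaces Psmb6 and overlaps Tap1 on the opposite strand by 743 bases, had 6 to 22 fragments per library and lay between 0.0928 and 0.392 FPKM with overlapping groups. Psmb10, which replaces Psmb7, was well expressed, at 13.7, 17.9 and 13.7 FPKM in bFGF/EGF-, 14.7, 11.7 and 14 FPKM in bFGF/BMP4- and 9.50, 13.8 and 9.28 FPKM in BMP4-treated NSCs. It differed by -0.16 ± 0.18 on the log2 scale in bFGF/BMP4-treated NSCs (adjusted p = 0.51) and fell by 0.48 ± 0.18 in BMP4-treated NSCs (adjusted p = 0.046), although the groups overlapped. The fall of Psmb10 was no longer called in 8 of the 9 fits that left out 1 library, the exception being BMP4 replicate 2, nor without a filter on low values, with quantile normalization, with the replicate block or with only these 2 groups fitted.

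**Figure D3:**
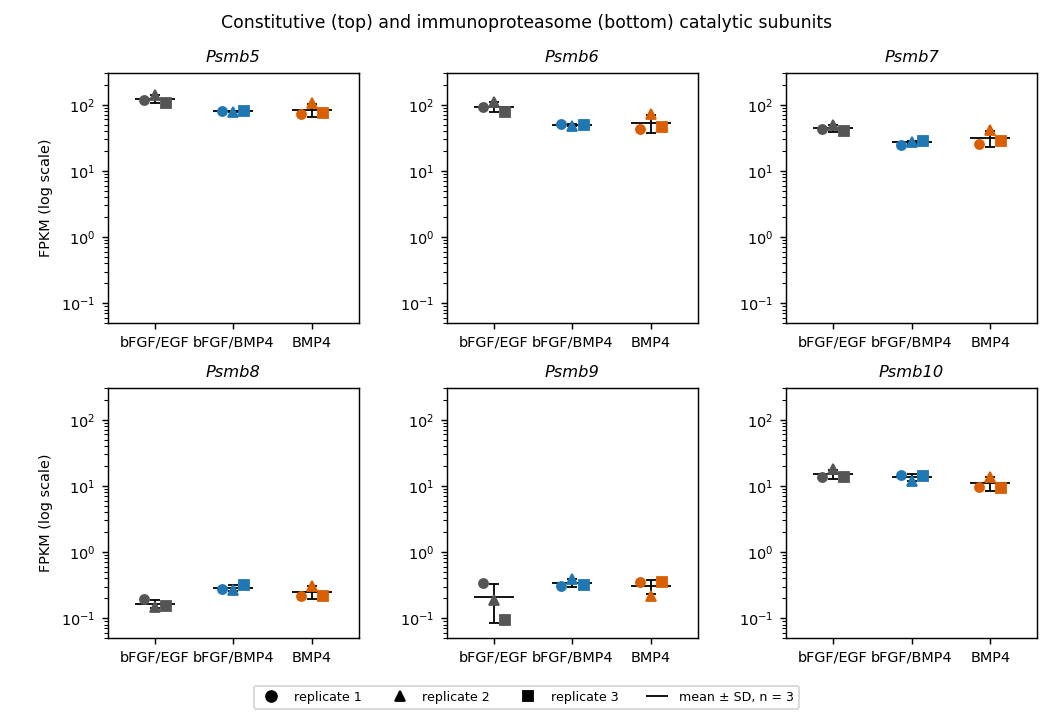
FPKM per library (log axis) of the constitutive catalytic subunits Psmb5, Psmb6 and Psmb7 (top) and of the immunoproteasome subunits Psmb8, Psmb9 and Psmb10 that replace them (bottom), with mean ± SD of 3 libraries. The top genes lie between 24.9 and 140 FPKM and are lower in the bFGF/BMP4 libraries, while Psmb8 and Psmb9 lie below 0.4 FPKM throughout.

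Ratios within a library set each immunoproteasome subunit against the subunit that it replaces. For 3 against 3 libraries the exact permutation test (two-sided) cannot give a p below 0.1, which is 0.15 after Benjamini-Hochberg adjustment over the 12 tests made. Psmb8 was at 1 in 735 of the level of Psmb5 in bFGF/EGF-treated NSCs, 1 in 274 in bFGF/BMP4- and 1 in 338 in BMP4-treated NSCs, a ratio 2.71 and 2.21 times the control, with no overlap between groups (exact p = 0.1 each). The ratio of Psmb10 to Psmb7 was 0.340 ± 0.022 with bFGF/EGF, 0.502 ± 0.087 with bFGF/BMP4 and 0.343 ± 0.025 with BMP4 alone. The bFGF/BMP4 libraries lay above all others for this ratio (exact p = 0.1 against each group), and BMP4-treated NSCs overlapped the control (exact p = 1). In bFGF/BMP4-treated NSCs the log2 fold change was -0.71 for Psmb7 and -0.16 for Psmb10. The ratio of Psmb9 to Psmb6 was 3.50 times the control in bFGF/BMP4- (exact p = 0.1) and 2.94 times in BMP4-treated NSCs (exact p = 0.2), and rests on few fragments.

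Of the 4 activators, 3 fell in bFGF/BMP4-treated NSCs, where 23.6% of all genes did. In BMP4-treated NSCs 1 fell and 1 rose, near the shares of all genes (25.3% fell and 29.6% rose). Psme3 (PA28γ), the nuclear cap that works without ATP or ubiquitin, lies at chr11:101206777-101215813. It was at 70.6, 76.7 and 68.6 FPKM in bFGF/EGF-, 32.8, 37.4 and 39.6 FPKM in bFGF/BMP4- and 37.9, 37.1 and 34.6 FPKM in BMP4-treated NSCs. The day 6 groups overlapped each other and lay below every control library, with a fall of 49.2% in both (limma, adjusted p = 5.2e-05 and 3.8e-05). Psme3 was among the 3 of the 46 proteasome genes that were not highest in BMP4 replicate 2 within that group.

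Psme4 (PA200), a nuclear cap linked to acetylated histones and DNA repair, lies at chr11:30721725-30830376. It was at 15.1, 9.11 and 13.8 FPKM in bFGF/EGF-, 13.6, 14.5 and 11.8 FPKM in bFGF/BMP4- and 20.2, 21.0 and 19.7 FPKM in BMP4-treated NSCs. The BMP4 libraries lay above all others, and the other groups overlapped. Psme4 rose by 0.71 ± 0.18 on the log2 scale in BMP4-treated NSCs (limma, adjusted p = 0.0068) and differed by 0.10 ± 0.18 in bFGF/BMP4-treated NSCs (adjusted p = 0.69). Between the day 6 groups it was 52.7% higher with BMP4 (adjusted p = 0.035). The ratio of Psme4 to Psme3, chosen after the values were seen and given without a test, was 0.178 ± 0.052 with bFGF/EGF, 0.367 ± 0.061 with bFGF/BMP4 and 0.556 ± 0.019 with BMP4 alone.

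Psme1 and Psme2 form PA28αβ, the cap that interferon-γ induces, and lie next to each other on chromosome 14. Psme1 (chr14:55815190-55822034) was at 11.4, 13.7 and 10.5 FPKM in bFGF/EGF-, 8.71, 6.93 and 6.68 FPKM in bFGF/BMP4- and 11.4, 15.4 and 11.3 FPKM in BMP4-treated NSCs. It fell by 0.67 ± 0.17 on the log2 scale in bFGF/BMP4-treated NSCs (limma, adjusted p = 0.0077) and overlapped the control in BMP4-treated NSCs (log2 fold change 0.09, adjusted p = 0.67). It was 69.4% higher in BMP4- than in bFGF/BMP4-treated NSCs (adjusted p = 0.0089), and 53.2% higher without BMP4 replicate 2 (adjusted p = 0.028). Psme2 was at 7.40, 11.5 and 6.99 FPKM, at 4.34, 4.99 and 4.47 FPKM and at 5.13, 11.0 and 4.43 FPKM in the order of the groups above. It fell by 0.86 ± 0.31 in bFGF/BMP4-treated NSCs (adjusted p = 0.044), a call lost in 7 of the 9 fits without 1 library, without a filter and with quantile normalization. In BMP4-treated NSCs Psme2 was not called (-0.41, limma adjusted p = 0.29), but it was called lower without BMP4 replicate 2 (-0.81, adjusted p = 0.014). Its level is uncertain because Psme2b, a near copy, was at 7.63 to 19.6 FPKM and could share its fragments. The ratio of Psme1 and Psme2 to Psme3 was 0.283 ± 0.039 with bFGF/EGF, 0.333 ± 0.060 with bFGF/BMP4 and 0.535 ± 0.154 with BMP4 alone, where all 3 libraries lay above the others (exact permutation p = 0.1 against each group). BMP4 replicate 2 raised that last mean, at 0.712 beside 0.437 and 0.455 in replicates 1 and 3.

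Psmf1 (PI31), a regulator first described as an inhibitor of the core particle, was at 5.65 to 8.34 FPKM with overlapping groups. It passed the test in no comparison (limma, adjusted p = 0.98, 0.29 and 0.40), and 0 such calls were made at an unadjusted p under 0.05 or with limma-voom.

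The chaperones that build the core particle fell in bFGF/BMP4-treated NSCs, 4 of 4, and in BMP4-treated NSCs, 3 of 4, where 23.6% and 25.3% of all genes fell. Psmg1, which pairs with Psmg2 to assemble the α ring, was at 21.3, 25.1 and 20.9 FPKM in bFGF/EGF-, 10.8, 11.1 and 12.2 FPKM in bFGF/BMP4- and 8.48, 15.2 and 8.80 FPKM in BMP4-treated NSCs. Psmg4, which pairs with Psmg3, was at 36.4, 46.5 and 34.2 FPKM, at 15.6, 17.9 and 16.0 FPKM and at 17.5, 24.5 and 18.9 FPKM. Both genes were below the control in every day 6 library. Psmg1 fell by 0.97 ± 0.20 and 1.09 ± 0.20 on the log2 scale (limma, adjusted p = 0.0030 and 0.0012), and Psmg4 by 1.23 ± 0.16 and 0.94 ± 0.16 (adjusted p = 0.00014 and 0.00061), in bFGF/BMP4- and BMP4-treated NSCs. Psmg3 was lower in level, at 3.44 to 4.07 FPKM in the control, and fell by 0.86 and 0.69 (adjusted p = 0.0036 and 0.010).

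Psmg2, the partner of Psmg1, lies on chromosome 18. It was at 18.5, 19.1 and 16.6 FPKM in bFGF/EGF-, 12, 13.7 and 14.2 FPKM in bFGF/BMP4- and 18.4, 25.8 and 18.1 FPKM in BMP4-treated NSCs. The BMP4 libraries overlapped the control and lay above the bFGF/BMP4 libraries. Psmg2 fell by 0.44 ± 0.15 on the log2 scale in bFGF/BMP4-treated NSCs (limma, adjusted p = 0.033) and was 54.0% higher in BMP4- than in bFGF/BMP4-treated NSCs (adjusted p = 0.014). The first call was lost in 5 of the 9 fits without 1 library, namely each bFGF/BMP4 library and bFGF/EGF replicates 1 and 2, and the second without bFGF/BMP4 replicate 1.

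The chaperones of the base ATPase ring are Psmd5, Psmd9 and Psmd10. All 3 fell in bFGF/BMP4-treated NSCs, where 23.6% of all genes did. In BMP4-treated NSCs 1 fell and 1 rose, near the shares of all genes (25.3% fell and 29.6% rose). Psmd5 (S5b; chr2:34739746-34764980), which holds the ATPases Psmc1 and Psmc2 before they join the ring and can inhibit the complete proteasome, had the largest difference between the day 6 groups. It was at 11.0, 11.5 and 9.94 FPKM in bFGF/EGF-, 5.77, 6.84 and 6.11 FPKM in bFGF/BMP4- and 12.3, 16.8 and 15.1 FPKM in BMP4-treated NSCs. The 3 groups did not overlap, with the control between the day 6 groups. Psmd5 fell by 0.78 ± 0.14 on the log2 scale in bFGF/BMP4-treated NSCs (limma, adjusted p = 0.0011), rose by 0.44 ± 0.14 in BMP4-treated NSCs (adjusted p = 0.022), and was 2.33-fold higher in BMP4- than in bFGF/BMP4-treated NSCs (adjusted p = 0.00018).

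The rise of Psmd5 above the control was no longer called without bFGF/EGF replicate 3, BMP4 replicate 2 or BMP4 replicate 3, with adjusted p of up to 0.068 in limma. The difference between the day 6 groups was called in every fit without 1 library (log2 differences of 1.12 to 1.34) and under every other alternative. Relative to Psmd2, a scaffold subunit of the base, Psmd5 was at 0.0869 ± 0.0012 with bFGF/EGF, 0.0728 ± 0.0069 with bFGF/BMP4 and 0.187 ± 0.016 with BMP4 alone, a ratio chosen after the values were seen and given without a test. Psmd9 was at 3.35 to 6.34 FPKM and fell by 0.52 and 0.64 on the log2 scale (adjusted p = 0.018 and 0.0052). Psmd10 (gankyrin), also known as an oncoprotein, was at 12.9 to 13.4 FPKM in the control, fell by 0.71 in bFGF/BMP4-treated NSCs (adjusted p = 0.017) and was at 8.05, 13.8 and 9.24 FPKM in BMP4-treated NSCs (-0.38, adjusted p = 0.15, and -0.60, adjusted p = 0.016, without BMP4 replicate 2). In bFGF/BMP4-treated NSCs the call of Psmd9 was lost in 3 and that of Psmd10 in 2 of the 9 fits without 1 library.

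**Figure D4:**
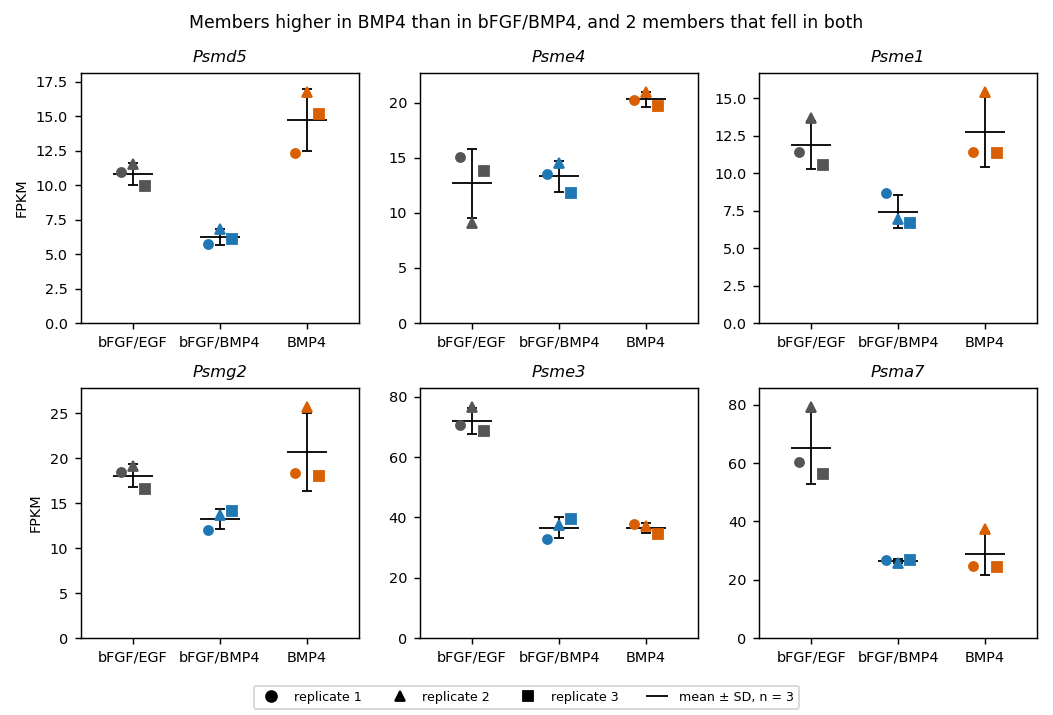
FPKM per library of the 4 proteasome genes that were higher in BMP4- than in bFGF/BMP4-treated NSCs (Psmd5, Psme4, Psme1 and Psmg2) and of Psme3 and Psma7, which fell in both, with mean ± SD of 3 libraries. Psmd5 separates the 3 groups, from 5.77 to 16.8 FPKM, and for Psme3 the day 6 groups lie together between 32.8 and 39.6 FPKM.

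Compared directly, the day 6 groups differed in 4 of the 46 proteasome genes tested, fewer in proportion than among all genes. Psmd5, Psme1, Psmg2 and Psme4 were higher in BMP4- than in bFGF/BMP4-treated NSCs (limma, adjusted p of at most 0.05), where 12.2% of all genes were, and 0 were lower, where 8.89% of all genes were (21.1% in either direction). With a fold change of at least 2, 1 (Psmd5) was higher, where 8.41% of all genes were, and 0 were lower, where 5.14% were. Without regard to the test, 8 genes had all BMP4 libraries above all bFGF/BMP4 libraries (20.5% of all genes) and 2 had them below (18.3%). At an unadjusted p under 0.05, 4 were higher and 1 lower, and limma-voom called 4 higher and 0 lower. None of the 31 constitutive subunits was called, and 1 of them, Psmd3, was lower at an unadjusted p under 0.05. The median of the 46 genes was 0.10, beside 0 for all genes, and -0.09 without BMP4 replicate 2, when Psmd5, Psme1 and Psmg2 were higher and Psmg1 was lower (adjusted p = 0.049). The difference of Psme4 is the least stable of the 4: it was not called when any of the 6 libraries of these groups was left out, without a filter on low values, on the TPM scale or with the replicate block, with log2 differences of 0.53 to 0.68 in the fits without 1 library.

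Genes that work with the proteasome without carrying a Psm symbol were also tested. Of 16 such components and partners, 11 fell and 1 rose in each comparison with the control, with medians of -0.72 and -0.67 on the log2 scale. Of all genes, 23.6% and 25.3% fell, and 25% and 29.6% rose. Usp14, a deubiquitinase of the base, was at 16.1 to 16.9 FPKM in bFGF/EGF-, 6.38 to 8.51 FPKM in bFGF/BMP4- and 7.13 to 7.72 FPKM in BMP4-treated NSCs, a fall of 1.15 in both (limma, adjusted p = 4.1e-05 and 2.8e-05). Ubqln4, a shuttle that carries ubiquitinated proteins, fell by 0.75 and 1.24 (adjusted p = 0.0011 and 3e-05). The 2 that rose, named after their values were seen, were Fbxo7, a partner of Psmf1, in bFGF/BMP4-treated NSCs (0.51, adjusted p = 0.0097), and Zfand5, an activator of the proteasome, in BMP4-treated NSCs (0.40, adjusted p = 0.019). Between the day 6 groups Ubqln4 was lower with BMP4 (-0.49) and Zfand5 higher (0.45), both with a limma adjusted p of 0.025. Of all genes, 8.89% were lower and 12.2% higher in that comparison. Neither Ubqln4 nor Zfand5 was called without BMP4 replicate 2. Of 6 genes for ubiquitin and its E1 enzymes, 4 fell in each comparison, among them Rps27a (-2.09 and -1.73), which encodes ubiquitin fused to a ribosomal protein. Rps27a varied widely between libraries, from 71.0 to 193 FPKM in the control.

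Of 10 genes for factors that control proteasome genes, 5 rose and 3 fell in each comparison with the control. Of all genes, 25% rose and 23.6% fell in bFGF/BMP4- and 29.6% rose and 25.3% fell in BMP4-treated NSCs, so the 3 lower are near the share of all genes. Nfe2l1 was at 40, 44.2 and 42.8 FPKM in bFGF/EGF-, 72.9, 63.9 and 68.6 FPKM in bFGF/BMP4- and 65.0, 61.9 and 63.5 FPKM in BMP4-treated NSCs, a rise of 0.69 and 0.59 on the log2 scale (limma, adjusted p = 0.00029 and 0.00067). Ngly1, which removes sugars from the Nfe2l1 protein so that it becomes active, was at 3.00 to 3.32 FPKM in the control and rose by 1.10 and 1.45 (adjusted p = 0.00012 and 1.4e-05). Nfe2l2 (Nrf2), the factor of the oxidative stress response, was at 21.2, 18.5 and 19.9 FPKM, at 25.2, 30.3 and 33.9 FPKM and at 56.3, 62.6 and 57.2 FPKM in the order of the groups. Its 3 groups did not overlap, and it was 0.98 ± 0.13 higher on the log2 scale in BMP4- than in bFGF/BMP4-treated NSCs (adjusted p = 0.00039). Also plotted, and named after their values were seen, were 3 further genes. Ddi2, the protease that releases Nfe2l1, passed the test in neither comparison with the control (adjusted p = 0.85 and 0.36), and Vcp, which extracts Nfe2l1 from the membrane, fell by 0.45 and 0.44 (adjusted p = 0.0067 each). Keap1, which holds Nfe2l2 back, fell by 0.39 and 0.56 (adjusted p = 0.024 and 0.0030).

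**Figure D5:**
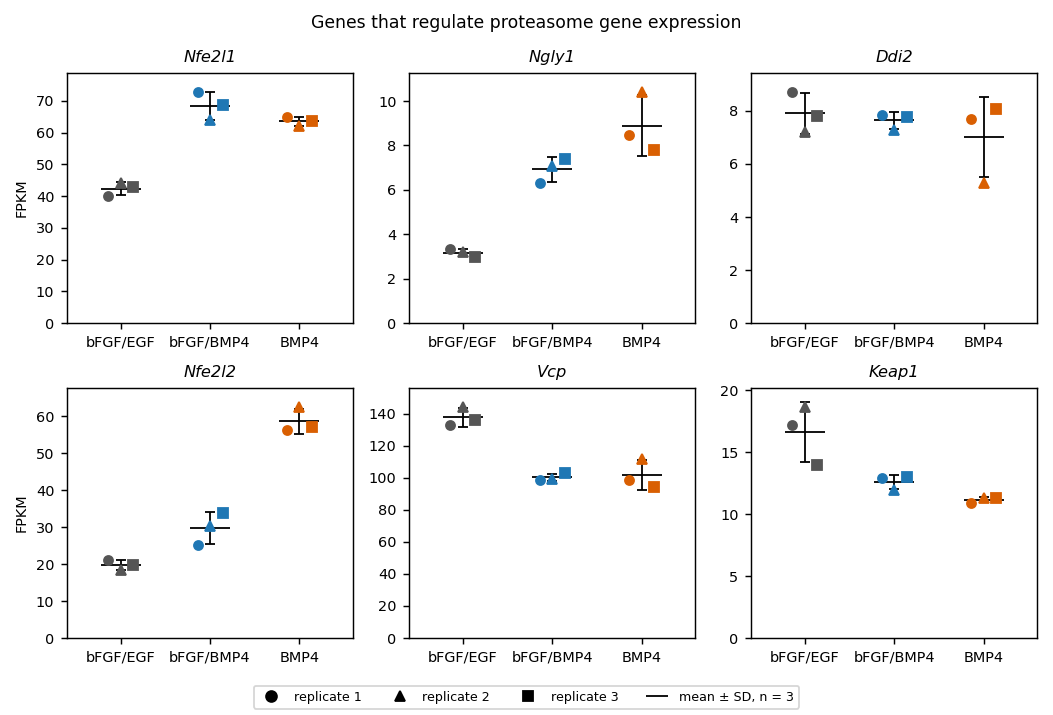
FPKM per library of 6 genes that control proteasome gene expression, with mean ± SD of 3 libraries. Nfe2l1 and Ngly1 are above the control in all 6 day 6 libraries, and Nfe2l2 is highest in the 3 BMP4 libraries (56.3 to 62.6 FPKM).

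Genes of antigen processing act on the peptides that the immunoproteasome makes. Of 10 tested, 6 rose and 1 (H2-K1, a class I heavy chain named after its values were seen) fell in each comparison with the control, with medians of 0.68 and 0.85 on the log2 scale, where 25% and 29.6% of all genes rose and 23.6% and 25.3% fell. In bFGF/BMP4-treated NSCs 2 fell without BMP4 replicate 2, and 3 were lower at an unadjusted p under 0.05. Tapbp (tapasin), which helps load peptides on class I molecules, was at 3.65 to 4.74 FPKM in bFGF/EGF-, 11.0 to 12.1 FPKM in bFGF/BMP4- and 21.2 to 25.4 FPKM in BMP4-treated NSCs, with no overlap between the groups. It rose by 1.49 and 2.44 (limma, adjusted p = 1.2e-05 and 3.7e-07). Tap2, a peptide transporter subunit, rose by 1.69 in bFGF/BMP4-treated NSCs. Between the day 6 groups Tapbp, Irf1 and Irf9 were higher with BMP4, by 0.95, 1.02 and 0.91, where 12.2% of all genes were higher. Of the immunoproteasome genes of the same response, Psmb8 and Psmb9 were below 0.4 FPKM in every library and Psmb10 was at 9.28 to 17.9 FPKM.

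Other complexes were set beside the proteasome. All 8 subunits of the TRiC/CCT chaperonin, which folds actin and tubulin, fell in both groups, where 23.6% and 25.3% of all genes fell. The medians of the 8 were -1.41 and -1.46 on the log2 scale. Of 10 subunits of the COP9 signalosome, a relative of the proteasome lid, 7 fell in each comparison (23.6% and 25.3% of all genes). In BMP4-treated NSCs 1 (Cops9, named after its values were seen) rose, where 29.6% of all genes did. The COP9 medians were -0.55 and -0.51. The 15 subunits of the V-ATPase, the proton pump of the lysosome, had medians of 0.28 and 0.45. Of them, 3 were higher in bFGF/BMP4- and 9 in BMP4-treated NSCs, where 25% and 29.6% of all genes rose. In both groups 0 were lower, where 23.6% and 25.3% of all genes fell. Without BMP4 replicate 2, 6 V-ATPase subunits were higher and 2 lower in bFGF/BMP4- and 8 higher and 1 lower in BMP4-treated NSCs. The shares of all genes given here are those of the fit with all 9 libraries. At an unadjusted p under 0.05, 1 V-ATPase subunit was lower in bFGF/BMP4- and 0 in BMP4-treated NSCs, and limma-voom called the same numbers lower. BMP4 replicate 2 was the highest BMP4 library for 8 of 8 TRiC/CCT, 10 of 10 COP9 and 13 of 15 V-ATPase subunits.

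The counting could have mixed some genes. Of the 48 proteasome genes, 27 overlap a gene on the opposite strand, and for 14 that gene had a mean of at least 1 FPKM, among them Psma7 (Ss18l1), Psmb4 (Pogz), Psmb7 (Nek6), Psmd10 (Atg4a), Psme1 (Emc9), Psme2 (Rnf31) and Psmg2 (Cep76). The strand setting of the counting is not given in the sources used here, so reads of the 2 strands may not have been told apart. Counting either strand, 32 proteasome genes overlap another gene. On the same strand, among others, Psma2 overlaps AW209491 by 44083 bases (mean 3.76 FPKM). Psmd13 overlaps the pseudogene Gm15542 by 1194 bases (mean 7.08 FPKM). The gene opposite Psmd5, Cutal, had a mean of 0.96 FPKM, where Psmd5 was at 5.77 to 16.8 FPKM.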

How the data were processed

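RNA of 9 NSC cultures was sequenced. The authors deposited 1 table of FPKM values per Ensembl gene and library, on mouse genome build mm39. The submitters' processing notes name fastp 0.19.7, HISAT2 2.0.5 and featureCounts 1.5.0-p3, and the strand setting of the counting is not given in the sources used here. The study tested counts with a count model and a fold change of at least 2. Its supplement gives raw counts, which were not used here. The values used here are FPKM, so limma 3.58.1 (R 4.3.3; trend) was fitted to log2(FPKM + 0.1) of the 20207 genes with a mean of at least 0.1 FPKM, over all 9 libraries. P-values were adjusted after Benjamini and Hochberg over all genes tested, and an adjusted p of at most 0.05 was called. Ratios were tested with exact permutation tests (scipy 1.17.1).

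Whole fragment numbers were rebuilt from the FPKM steps for all 30860 genes above 0 (tolerance 0.05 fragments), giving 15892854 to 17419822 fragments per library, and were used for limma-voom and for depth. The rebuilt numbers were not checked against the raw counts in the supplement of the study. Fragment numbers cover counting error only. Of 55704 identifiers, 54749 matched GENCODE vM39.

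The proteasome genes and the other gene lists were chosen with earlier results of these data known. Proteasome genes were described by role, and from every other list the 2 called genes of largest change in each comparison were named. Some genes that this rule names are not reported here. Alternatives were other pseudocounts, filters, scales, tools and fits, the replicate block and leaving out each library. The fits were tested on simulated data.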

Additional observations from a re-analysis of the deposited data

Results flagged for a closer look

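Psmd5 lay on opposite sides of the control in the day 6 groups. All 3 bFGF/BMP4 libraries lay below, and all 3 BMP4 libraries above, every bFGF/EGF library, and the log2 difference between BMP4- and bFGF/BMP4-treated NSCs was 1.22 (limma, adjusted p = 0.00018). Without BMP4 replicate 2 it was 1.12 (adjusted p = 0.0010). The rise above the control (0.44, adjusted p = 0.022) was no longer called without that library (0.34, adjusted p = 0.065), bFGF/EGF replicate 3 or BMP4 replicate 3.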

How the results depend on the processing

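The direction of the medians against bFGF/EGF-treated NSCs held under every alternative run. Leaving out each library gave 32 to 39 proteasome genes lower in bFGF/BMP4-treated NSCs, and 25 to 38 lower and 1 to 2 higher in BMP4-treated NSCs. The other alternatives gave 36 to 40 and 25 to 36 lower. The shares of all genes called under these alternatives are not given here. With a fold change of at least 2, the counts were 2 lower in bFGF/BMP4-treated NSCs, 3 lower and 0 higher in BMP4-treated NSCs, and 1 higher in BMP4- than in bFGF/BMP4-treated NSCs. In that last comparison, leaving out each library gave 2 to 4 higher and 0 to 1 lower, with a median of -0.09 to 0.21, which was below 0 (-0.0868) without BMP4 replicate 2. 1 gene was lower on the TPM scale, with quantile normalization and with only the 2 groups fitted (1 each). The log2 ratio of Psmb10 to Psmb7 between BMP4 and bFGF/EGF ranged from -0.0462 to 0.0557, with -0.0365 without bFGF/EGF replicate 1 and -0.0462 without BMP4 replicate 1. That of Psmb9 to Psmb6 between the day 6 groups ranged from -0.511 to 0.204, the latter without BMP4 replicate 2. The cause of these changes was not tested.

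Same-numbered libraries had correlations of -0.084 to 0.125 in their deviations from the group means, so the numbers were not taken to pair the libraries. With the replicate block, 39 genes were lower in bFGF/BMP4-treated NSCs, 31 lower and 2 higher in BMP4-treated NSCs, and 3 higher in BMP4- than in bFGF/BMP4-treated NSCs. Psmb8 and Psmb9, at 6 to 22 fragments per library, are limited by depth.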

Other observations

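Some genes with related symbols lie outside the rule. Psmc3ip, a recombination factor named for its binding to Psmc3, was at 15.9, 12.9 and 8.87 FPKM in bFGF/EGF-, 2.05, 2.65 and 3.81 FPKM in bFGF/BMP4- and 2.20, 3.26 and 2.20 FPKM in BMP4-treated NSCs. It fell by 2.11 and 2.23 on the log2 scale (limma, adjusted p = 0.00015 and 7.6e-05). Psme2b, the near copy of Psme2, fell by 0.87 and 0.55 (adjusted p = 0.0030 and 0.028). The pseudogene Psma5-ps fell by 1.16 and 0.83 (adjusted p = 0.0086 and 0.036), and how its reads were told apart from those of Psma5 was not tested. These genes were chosen after the values were seen.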
